A study of Mus musculus with 8 samples.

Results

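The comparison described here set cKO CLT tissue against cKO CLH tissue in the *Med1* conditional knockout (cKO) mouse incisor. CLH is the head of the cervical loop (CL), the part that holds the dental epithelial stem cells, and CLT is the tail, which holds their progenies. RNA-seq libraries were made from both tissues of cKO mice and of control (Ctrl) mice, 2 libraries in each of 4 groups, all C57BL/6 and 4 weeks old. In cKO mice Cre recombinase driven by the *Krt14* promoter deletes floxed *Med1* exons in epithelial cells only, so mesenchymal cells dissected with them keep the gene. Ctrl mice were littermates without Cre. Tissues of several mice were pooled for a library, without distinguishing male from female mice, so p-values measure the spread between 2 pools. The members were the genes with an RPKM (reads on a gene scaled for the length of the gene and the depth of the library) of at least 1 in 2 or more of the 4 cKO libraries, which held for 13889 of the 23358 genes measured.

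The rodent incisor grows throughout life. Stem cells at its cervical loop give rise to ameloblasts, which secrete the enamel matrix and later mature it, while odontoblasts of the neighbouring mesenchyme make dentin. Hair follicles and epidermis arise from the same surface ectoderm but build other proteins. The inner root sheath that moulds a growing hair is filled with its own keratins and with trichohyalin, the hair shaft with hard keratins cross-linked by keratin-associated proteins, and the outer epidermis with proteins of the cornified envelope. MED1 is a subunit of Mediator, the complex that passes signals from transcription factors on enhancers to RNA polymerase II.

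The 250 bases upstream of the start of 4 genes are shown because these genes mark both ends of the comparison. *Tchh*, *Krt71* and *Krtap8-1* were among the genes with the largest rises in cKO CLT, and *Amelx* had the largest fall. The sequences are from RefSeq on GRCm38.p6 and run 5′ to 3′ on the strand of the gene. *Tchh* lies on the plus strand (chr3:93442080-93442329), and *Krt71* (chr15:101743098-101743347), *Krtap8-1* (chr16:89487953-89488202) and *Amelx* (chrX:169187210-169187459) lie on the minus strand. Capitals mark matches on either strand to 4 short motifs. The TATA box was searched as TATAAA, the letters bound by TCF/LEF factors were CTTTGA, those of the RUNX factors were TGTGGT, and for GATA factors the search used AGATAA.
Tchh: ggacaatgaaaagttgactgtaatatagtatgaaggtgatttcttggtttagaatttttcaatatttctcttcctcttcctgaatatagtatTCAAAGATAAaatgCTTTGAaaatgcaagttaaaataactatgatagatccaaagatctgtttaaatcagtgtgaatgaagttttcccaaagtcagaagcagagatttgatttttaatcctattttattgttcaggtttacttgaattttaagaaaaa
Krt71: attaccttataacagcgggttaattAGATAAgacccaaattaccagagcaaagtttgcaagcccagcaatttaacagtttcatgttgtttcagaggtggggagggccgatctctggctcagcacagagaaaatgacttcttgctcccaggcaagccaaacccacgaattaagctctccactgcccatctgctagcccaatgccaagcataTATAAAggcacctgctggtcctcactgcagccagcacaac
Krtap8-1: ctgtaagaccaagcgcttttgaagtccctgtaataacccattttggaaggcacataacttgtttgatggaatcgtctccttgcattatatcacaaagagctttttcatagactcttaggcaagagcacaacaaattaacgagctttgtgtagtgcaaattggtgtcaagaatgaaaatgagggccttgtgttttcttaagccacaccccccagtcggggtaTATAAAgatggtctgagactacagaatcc
Amelx: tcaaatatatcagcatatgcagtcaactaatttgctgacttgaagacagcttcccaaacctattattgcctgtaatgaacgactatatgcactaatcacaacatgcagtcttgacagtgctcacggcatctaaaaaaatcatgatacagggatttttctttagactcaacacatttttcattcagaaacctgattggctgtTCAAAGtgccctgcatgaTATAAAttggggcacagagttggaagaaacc
A TATA box began 40 bases before the start in *Krt71*, 29 in *Krtap8-1* and 31 in *Amelx*, and none was found in *Tchh*. *Tchh* held a pair of TCF/LEF matches, 158 and 144 bases before the start, and a GATA match at 154 that overlaps the first of them. *Amelx* held a TCF/LEF match at 49 bases and *Krt71* a GATA match at 225. No RUNX match lay in these windows. Of all 32851 RefSeq promoters of this length, 12.4% hold the TATA box, 13.8% the TCF/LEF letters, 14.1% the RUNX letters and 9.99% the GATA letters, so each is common and a match describes the sequence only. The *Dspp* promoter is not shown.

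The libraries held 22330512 to 28651106 reads on genes, and the 4 cKO libraries 22554294 to 28389307. Replicates were close in 3 of the groups, with a median absolute log2 difference between the 2 libraries of 0.105 in cKO CLT, 0.113 in cKO CLH and 0.0922 in Ctrl CLH. The 2 Ctrl CLT libraries stood apart from each other, with a median difference of 0.404 and 34.6% of genes more than 1.5-fold apart, so Ctrl values are given for each library. All libraries were labelled as dental epithelial cells. In cKO CLT the genes of the secretory-stage ameloblast were near 0. Some other genes of dental epithelium, described below, were near 0 as well, such as *Isl1*, *Nkx2-3* and *Sox2*. Others were not, such as *Dlx3*, which hair also needs. *Amelx*, which encodes the main enamel matrix protein, was at 6.57 and 3.68 RPKM there and at 9733 and 11044 RPKM in cKO CLH. *Dspp*, which encodes the dentin matrix precursor and marks odontoblasts, was at 0.145 and 0.174 RPKM in cKO CLT and at 654 and 537 RPKM in cKO CLH, so odontoblast RNA was present in the cKO CLH libraries. RNA of the X-inactivation gene *Xist* was at 72.7 and 51.7 RPKM in cKO CLH and at 21.8 and 19.0 RPKM in cKO CLT, and RNA of the Y-linked gene *Ddx3y* at 2.16 and 1.82 RPKM in cKO CLH and at 4.98 and 4.11 RPKM in cKO CLT. In the second Ctrl CLT library *Xist* was at 1.02 and *Ddx3y* at 18.1 RPKM. The mix of sexes in the pools is not given for each library, and its part in the results was not tested. *Med1* itself was at 7.10 and 7.03 RPKM in cKO CLH and at 9.15 and 8.96 RPKM in cKO CLT. This was a rise of 0.32 on the log2(RPKM + 1) scale (SE 0.09, limma adjusted p = 0.014), and the call was lost when the second cKO CLH, the first cKO CLT or the second cKO CLT library was left out (limma adjusted p = 0.0545, 0.0904 and 0.0741) and with all 8 libraries in 1 fit (limma adjusted p = 0.295). *Med1* was at 7.71 and 9.12 RPKM in Ctrl CLH and at 4.83 and 8.71 RPKM in Ctrl CLT. The cKO libraries were thus below the Ctrl libraries in CLH and above them in CLT. RPKM counts reads on the whole gene, not on the floxed exons alone, so these values do not measure the deletion. The CLT minus CLH difference was 0.64 higher in cKO than in Ctrl, which did not pass the test (limma adjusted p = 0.214).

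Transcripts of most genes differed between the 2 cKO tissues. Of the 13889 genes tested with limma on log2(RPKM + 1), 4073 (29.3%) were higher in cKO CLT and 6250 (45.0%) were lower at an adjusted p under 0.05. At least 2-fold differences were called for 1841 genes that rose (13.3%) and 2221 that fell (16.0%). At least 16-fold differences were called for 282 genes that rose and 83 that fell. The median gene lay at −0.17 on this scale, and scaling by the median of ratios moved it by 0.18 and gave 5125 higher and 4914 lower, so the split of calls changed from 39.5% higher to 51.1% higher. No gene was called with a log2 difference under 0.2, and small differences are read against that shift. The filter itself kept 1034 genes through CLT alone and 1044 through CLH alone, genes that had to differ, so counts over lists below describe the members tested and are set beside these percentages only. In bulk tissue, fewer cells of a type and less RNA per cell cannot be told apart.

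**Figure D1:**
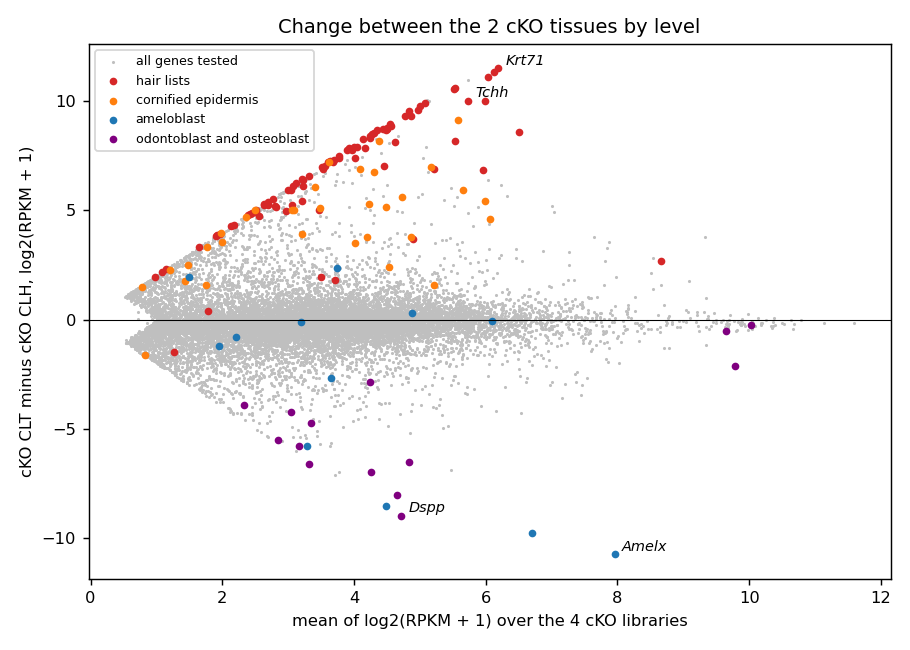
Mean level over the 4 cKO libraries (horizontal axis, mean of log2(RPKM + 1)) against the cKO CLT minus cKO CLH difference (vertical axis, log2) for each of the 13889 genes tested. Grey points are all genes, red points the hair lists, orange the cornified epidermis list, blue the ameloblast list and purple the odontoblast and osteoblast list. The hair genes lie at the top, with *Krt71* at 11.51, and *Amelx* lies at the bottom at −10.77.

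The inner root sheath genes showed the largest rises. All 13 members tested were higher in cKO CLT, each by at least 2-fold, with a median log2 difference of 8.14 against −0.17 for all genes. *Krt71*, a keratin of the inner root sheath, was at 0.382 and 0.327 RPKM in cKO CLH and at 3726 and 4189 RPKM in cKO CLT (log2 difference 11.51, SE 0.09, limma adjusted p = 1.9e-11). *Tchh*, encoding trichohyalin, went from 0.702 and 0.61 RPKM to 1636 and 1801 RPKM (10.02, SE 0.09, limma adjusted p = 2.3e-11). *Krt25*, its type I keratin partner in the sheath, went from 0.197 and 0.164 RPKM to 1705 and 1873 RPKM (10.56, SE 0.09). These genes were almost silent in both cKO CLH libraries and among the most abundant of cKO CLT. Their groups did not overlap, which also held for 12075 of the 13889 genes tested. *Gata3*, a transcription factor of inner root sheath differentiation, rose from 0.0369 and 0.0631 RPKM to 39.7 and 38.9 RPKM (5.26, SE 0.10). *Padi1*, which encodes a peptidylarginine deiminase, had the smallest rise of the list at 4.95. In the companion layer, which lies next to the sheath, 5 of 6 genes rose and *Krt6b* fell by 1.49, which did not pass with all 8 libraries in 1 fit (limma adjusted p = 0.0723). *Krt75*, the companion layer keratin, went from 2.01 and 2.82 RPKM to 390 and 429 RPKM (6.92, SE 0.12).

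Genes of the hair shaft rose as a group. All 19 tested were higher, 18 of them by at least 2-fold, with a median difference of 7.32. *Krt33a*, a cortex keratin, went from 0.0353 and 0.0403 RPKM in cKO CLH to 763 and 804 RPKM in cKO CLT (9.56, SE 0.08). *S100a3*, a calcium-binding protein of the hair cuticle, went from 0.583 and 1.47 RPKM to 1954 and 2102 RPKM (10.00, SE 0.18). *Krt85*, a keratin of the hair matrix and early cortex, had no read in cKO CLH and stood at 314 and 309 RPKM in cKO CLT, at least 6632-fold higher when 3 reads are allowed for each empty library. *Krt32*, a cuticle keratin, also had no read in cKO CLH and was at least 2698-fold higher. Regulators of the shaft rose too. *Hoxc13*, which controls hair keratin genes, went from 0.0244 and 0.0695 RPKM to 65.4 and 61.8 RPKM (5.95, SE 0.10), and *Foxn1*, the nude mouse gene, from 0.118 and 0.162 RPKM to 40.6 and 42.6 RPKM (5.22, SE 0.10). *Lef1*, the Wnt effector of the hair matrix that the tooth also uses, was already at 4.69 and 4.76 RPKM in cKO CLH and rose to 21.8 and 20.9 RPKM (1.96, SE 0.09). *Selenbp1*, whose protein binds selenium, rose by 0.40, the least of the list, and did not pass without the first cKO CLH library (0.30) or the second cKO CLT library (0.31).

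Of 52 keratin-associated protein genes in the table, 49 passed the filter and all 49 rose, with a median difference of 6.43. Setting the 20 of them with an empty cKO CLH group at the 3-read bound gave a median of 7.68. *Krtap8-1* went from 0.409 and 0.351 RPKM to 3632 and 3480 RPKM (11.33, SE 0.08), *Krtap7-1* from 0.334 and 0.436 RPKM to 3023 and 3138 RPKM (11.12, SE 0.08), and *Krtap11-1* from 0.0294 and 0.134 RPKM to 1003 and 1088 RPKM (9.92, SE 0.09). These small proteins cross-link keratin filaments in the shaft. Many keratin and keratin-associated protein genes are near-identical copies, so the value of a single member is less certain than that of the family. Other genes with a rise of this size outside the lists were *Prr9*, a small proline-rich gene (2465 and 2288 RPKM in cKO CLT against 0.2 and 0.172), and *Sprr4*, a cornified envelope precursor (1136 and 1112 RPKM against 0.128 and 0).

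**Figure D2:**
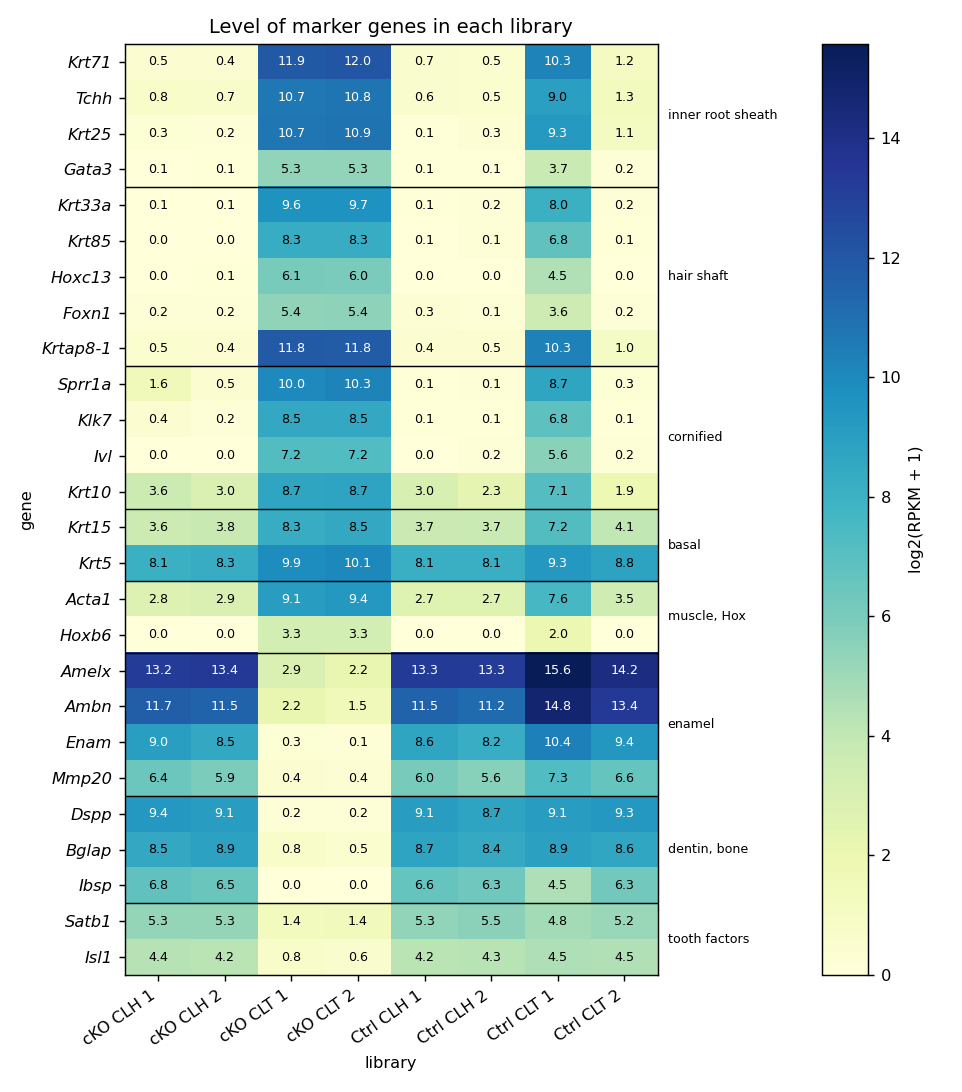
Level of 26 genes (rows, grouped by list) in each of the 8 libraries (columns), coloured by log2(RPKM + 1) from 0 (pale) to its maximum (dark), with the value printed in each cell. The hair and cornified genes are dark in both cKO CLT libraries and in Ctrl CLT 1 and pale in the other 5 libraries, and the enamel and dentin genes are palest in both cKO CLT libraries.

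Genes of the cornified epidermis rose as well. Of 33 members tested 32 rose, all by at least 2-fold, with a median difference of 4.72. *Sprr1a*, an envelope precursor, went from 1.95 and 0.385 RPKM to 1047 and 1219 RPKM (9.13, SE 0.28), and *Klk7*, a protease of shedding corneocytes, from 0.306 and 0.136 RPKM to 359 and 354 RPKM (8.20, SE 0.10). *Ivl*, which encodes involucrin, went from 0 and 0.0178 RPKM to 149 and 151 RPKM (7.23, SE 0.09). *Krt10* and *Krt1*, the keratin pair of suprabasal epidermis, rose by 5.42 (SE 0.18) and 5.10 (SE 0.10), and *Lor*, encoding loricrin, by 3.94 (SE 0.10). These proteins build the barrier of the skin surface. The exception was *Sprr3*, a small proline-rich gene of internal stratified epithelia such as the oral lining, which was at 3.03 and 1.44 RPKM in cKO CLH and had no read in cKO CLT, at least 25.2-fold lower. Of 18 late cornified envelope genes, 11 passed the filter and all 11 rose, with *Lce1m* at 0.0338 and 0 RPKM in cKO CLH and at 56.3 and 55.9 RPKM in cKO CLT. Junction genes moved the same way. All 15 desmosome genes rose, with a median of 2.92, among them *Dsp* (desmoplakin) from 28.5 and 27.0 RPKM to 263 and 271 RPKM (3.22, SE 0.08). Of 9 connexins 6 rose and 2 fell. *Gjb2*, a connexin of epidermis and hair follicle, went from 0.505 and 0.31 RPKM to 394 and 362 RPKM (8.08, SE 0.10), while *Gjc1*, a connexin of mesenchymal and vascular cells, went from 19.3 and 18.9 RPKM to 2.61 and 2.14 RPKM (−2.58, SE 0.11).

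Markers of some other cell types of haired skin rose with the keratins, while more dermal papilla, endothelial and leukocyte genes fell than rose, as given below. All 12 sebaceous gland genes were higher, with a median difference of 2.83, and *Elovl3*, a fatty acid elongase of sebocytes, went from 0.0158 and 0.018 RPKM to 36.8 and 34.2 RPKM. Of 14 melanocyte genes 13 were higher, with a median of 2.64. *Pmel*, a melanosome matrix protein, went from 0.57 and 0.429 RPKM to 75.1 and 84.0 RPKM (5.75, SE 0.10), and *Dct*, a melanin synthesis enzyme, from 1.39 and 1.94 RPKM to 124 and 122 RPKM (5.55, SE 0.11), whereas *Kit*, a receptor also carried by other cells, fell by 0.68, which did not pass with all 8 libraries in 1 fit (limma adjusted p = 0.0743). All 8 fat cell genes rose, with a median of 2.19, led by *Fabp4*, a fatty acid binding protein also found in endothelium, from 6.75 and 9.08 RPKM to 663 and 608 RPKM. Of 39 Hox genes, which mark position along the body and are mostly silent in the jaw, 19 passed the filter and all 19 rose. *Hoxb6* had no read in any CLH library and stood at 8.58 and 8.71 RPKM in cKO CLT, at least 120.0-fold higher than cKO CLH. The sebaceous list took 0.129% and 0.123% of reads on genes in cKO CLT against 0.0338% and 0.0307% in cKO CLH, the melanocyte list 0.133% and 0.132% against 0.0160% and 0.0154%, and the fat cell list 0.0720% and 0.0661% against 0.00323% and 0.00417%. The part of skin cells in the hair and epidermal results was not tested.

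All 16 skeletal muscle genes rose as well, with a median of 5.41. *Acta1*, the actin of skeletal muscle, went from 5.89 and 6.45 RPKM to 551 and 659 RPKM (6.40, SE 0.11), and *Myh4*, a fast myosin, from 0.0295 and 0.0169 RPKM to 87.3 and 92.3 RPKM (6.47, SE 0.09). Muscle RNA made up 0.554% and 0.602% of reads on genes in cKO CLT and 0.00748% and 0.00869% in cKO CLH. The hair lists together (90 genes) took 6.39% and 6.78% of reads in cKO CLT against 0.0386% and 0.0414% in cKO CLH, and the cornified lists 1.01% and 1.06% against 0.0368% and 0.0310%. RNA of a tissue other than epithelium was thus measured in the same libraries as the hair genes, and its part in the result was not tested.

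**Figure D3:**
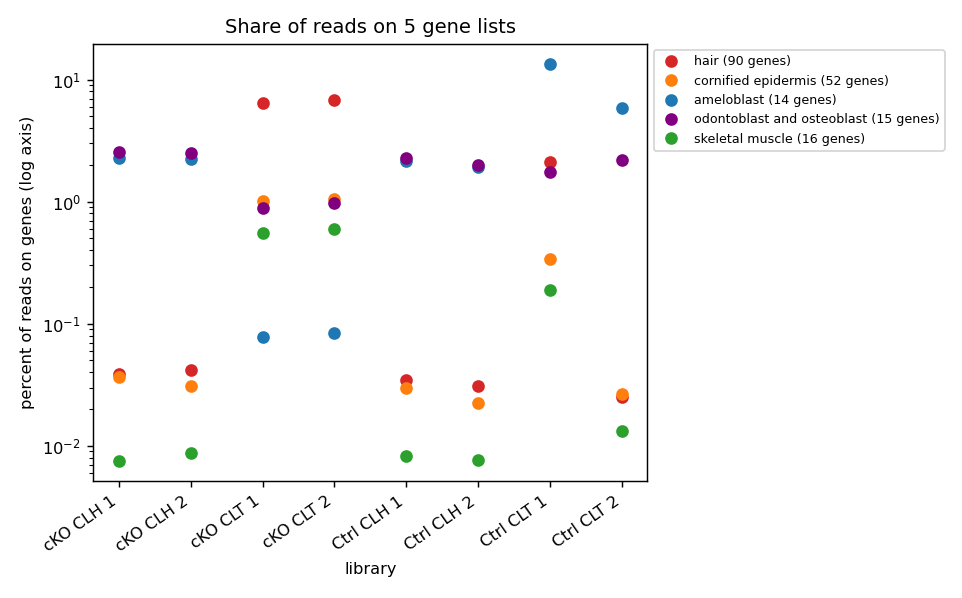
Percent of reads on genes taken by 5 gene lists (log axis), 1 point per library. In both cKO CLT libraries the hair lists take 6.39% and 6.78%, the cornified lists 1.01% and 1.06% and the muscle list 0.554% and 0.602%, and Ctrl CLT 1 follows at 2.10%, 0.342% and 0.187%, while the ameloblast list takes under 0.1% only in cKO CLT.

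Many of the largest rises lay in 4 gene clusters of mm10. The epidermal differentiation complex on chromosome 3 (90511034 to 93471980, *S100a1* to *Tchhl1*) holds 66 genes of the table, of which 40 were tested, 36 rose and 3 fell. Those 3 were *Sprr3* and the neutrophil genes *S100a8* and *S100a9*, the former not passing with all 8 libraries in 1 fit (limma adjusted p = 0.114). The type I keratin and keratin-associated protein cluster on chromosome 11 (99233098 to 100269871) had 53 genes tested, 51 higher and 1 lower, *Krt13*. The type II keratin cluster on chromosome 15 (101349571 to 102032026) had 26 tested, 21 higher and 4 lower. The keratin-associated protein cluster on chromosome 16 (88610709 to 89571183) had 24 tested and all 24 higher, 23 of them by at least 16-fold. Together the 4 clusters held 95 of the 282 genes that rose at least 16-fold (33.7%) and 143 of the 13889 genes tested (1.03%). The 5 genes with a fall in the keratin clusters were *Krt13*, *Krt4* and *Krt76* of the oral lining, *Krt6b*, and *Krt8* of simple epithelia.

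The largest falls of single genes were those of the enamel matrix genes *Amelx* and *Ambn*, while the ameloblast list as a whole was split. *Amelx* was at 9733 and 11044 RPKM in cKO CLH and at 6.57 and 3.68 RPKM in cKO CLT, a difference of −10.77 (SE 0.20, limma adjusted p = 6.5e-10). *Ambn*, encoding ameloblastin, went from 3309 and 2831 RPKM to 3.45 and 1.78 RPKM (−9.77, SE 0.19). *Enam*, encoding enamelin, went from 519 and 363 RPKM to 0.234 and 0.0935 RPKM (−8.55, SE 0.16). *Mmp20*, the protease of the secretory stage, went from 85.3 and 60.3 RPKM to 0.348 and 0.28 RPKM (−5.79, SE 0.15). All 4 are secretory-stage genes, and in Ctrl both CLT libraries held more of each than either Ctrl CLH library, with *Amelx* at 48798 and 18602 RPKM against 10173 and 9794 RPKM. The maturation genes were low in both cKO tissues. *Klk4*, the maturation protease, was at 0.886 and 1.48 RPKM in cKO CLH and at 0.231 and 0.119 RPKM in cKO CLT and was not tested there. *Amtn*, encoding amelotin, was at 5.48 and 13.2 RPKM in cKO CLH and at 6.88 and 8.72 RPKM in cKO CLT (−0.13, SE 0.30, limma adjusted p = 0.71). The sign for *Amtn* depended on 1 library, at −0.70 without the first cKO CLH library, 0.43 without the second and 0.02 without the first cKO CLT library, and on the scaling, at 0.045 with the median of ratios. *Odam*, the neighbour of *Amtn* on the genome, fell by 1.22 (SE 0.18), a call lost with all 8 libraries in 1 fit (limma adjusted p = 0.146). In Ctrl CLT these genes were abundant, *Klk4* at 187 and 206 RPKM, *Amtn* at 4429 and 3246 RPKM and *Odam* at 871 and 3671 RPKM. Of the 12 ameloblast genes tested 7 fell and 3 rose, with a median of −1.02. The 3 were *Fam83h* (2.34), which acts on keratin filaments, *Slc24a4* (1.95), a sodium-calcium exchanger, and *Stim1* (0.31), a calcium sensor of the endoplasmic reticulum, which did not pass without the second cKO CLT library (0.28).

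Dentin and bone genes fell as a group, 13 of 14 tested, with a median of −5.13. *Dspp* went from 654 and 537 RPKM to 0.145 and 0.174 RPKM (−9.0, SE 0.11, limma adjusted p = 7.1e-11). *Bglap*, encoding osteocalcin, went from 364 and 461 RPKM to 0.686 and 0.411 RPKM (−8.06, SE 0.13), *Spp1*, encoding osteopontin, from 216 and 215 RPKM to 0.839 and 0.531 RPKM (−7.01, SE 0.11), and *Alpl*, the alkaline phosphatase of mineralizing cells, from 273 and 280 RPKM to 1.94 and 1.97 RPKM (−6.55, SE 0.08). *Ibsp*, encoding bone sialoprotein, was at 111 and 86.5 RPKM in cKO CLH and had no read in cKO CLT, at least 1782-fold lower. Most of these are products of odontoblasts and osteoblasts, which are mesenchymal cells. *Alpl* is also on the list of the stratum intermedium, an epithelial layer behind the ameloblasts. *Sparc*, a matrix protein of many connective tissues, was at 1062 and 1195 RPKM and at 959 and 958 RPKM and did not pass the test (−0.23, SE 0.12, limma adjusted p = 0.098), but passed without the first cKO CLH library (−0.32), with quantile normalization (limma adjusted p = 0.0301) and with voom (limma adjusted p = 0.0389). The list still took 0.888% and 0.975% of reads on genes in cKO CLT against 2.57% and 2.50% in cKO CLH. *Sparc* and the type I collagen genes *Col1a1* (376 and 472 RPKM) and *Col1a2* (639 and 700 RPKM), which skin also makes, were still abundant in cKO CLT. Even so, *Col1a1* differed by −2.13, and *Col1a2* by −0.46 without the first cKO CLT library and −0.60 without the second. *Mmp13*, a collagenase, went from 421 and 460 RPKM to 0.16 and 0.137 RPKM (−8.59, SE 0.09), and *Col9a2*, a collagen of cartilage, from 150 and 156 RPKM to 0.247 and 0.174 RPKM (−6.99, SE 0.09).

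Dental mesenchyme and jaw patterning genes also fell. Of 17 mesenchyme genes tested 13 fell and 2 rose. *Alx1*, a craniofacial homeobox gene, went from 23.3 and 23.3 RPKM to 0.258 and 0.221 RPKM (−4.29, SE 0.10), *Lhx8*, a LIM homeobox gene of dental mesenchyme, from 17.6 and 15.3 RPKM to 0 and 0.111 RPKM (−4.05, SE 0.12), and *Pax9*, needed for tooth formation, from 6.91 and 6.15 RPKM to 0.0139 and 0 RPKM (−2.90, SE 0.10). These transcription factors are general to tooth mesenchyme. The 2 that rose were *Col3a1* (1.01), a fibrillar collagen of skin and other soft tissue, and *Thy1* (0.58), a surface protein of fibroblasts. All 3 cartilage genes tested, 3 of 4 osteoclast genes and 10 of 11 leukocyte genes fell, the exception among leukocyte genes being the T cell gene *Cd3e* (1.13). Of 10 endothelial genes 7 fell and *Pecam1* rose by 0.33, a call lost without the first cKO CLT library (0.30). The leukocyte list took 0.0210% and 0.0199% of reads on genes in cKO CLT and 0.0448% and 0.0449% in cKO CLH, and the endothelial list 0.0385% and 0.0389% against 0.0535% and 0.0575%. Of 7 Schwann cell and nerve genes tested 3 rose and 3 fell. Among 11 dermal papilla genes 2 rose and 6 fell, with *Wif1*, a Wnt inhibitor that dental tissue also makes, at 251 and 227 RPKM in cKO CLH and 14.6 and 14.3 RPKM in cKO CLT.

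**Figure D4:**
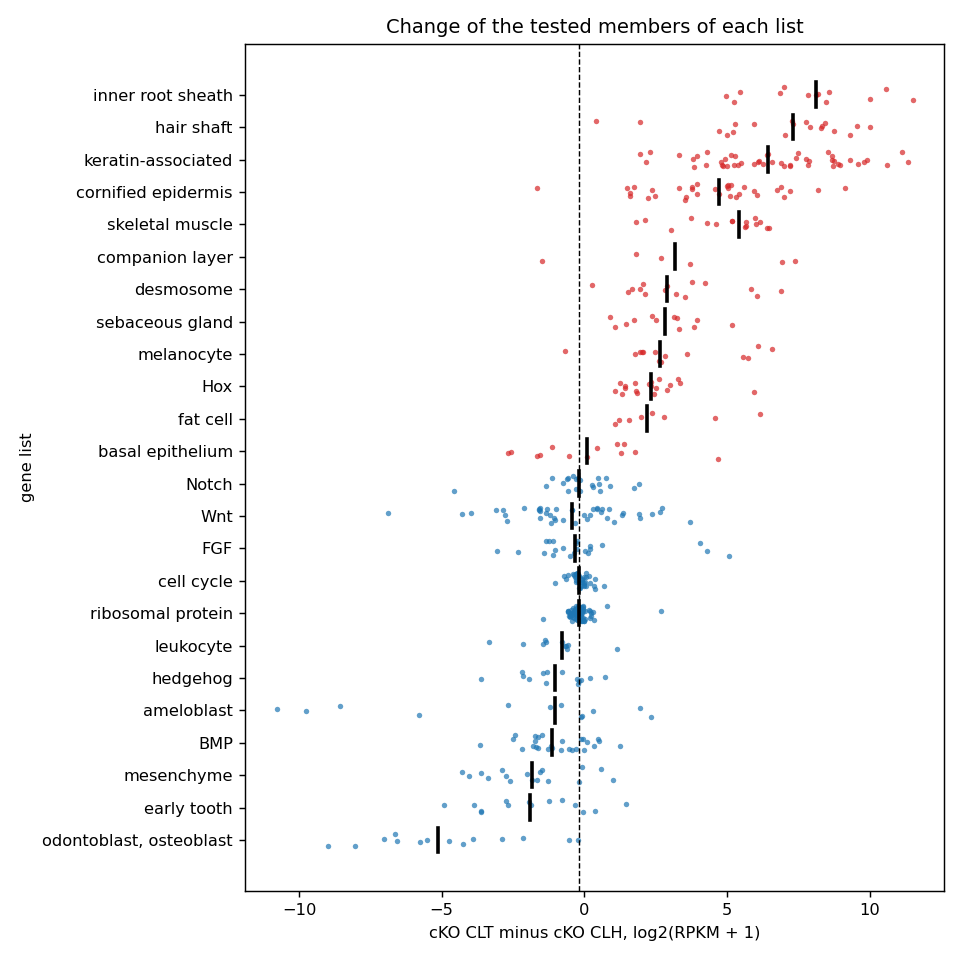
Log2 difference between cKO CLT and cKO CLH for each tested member of 24 gene lists (points) with the list median (black bar) and the median of all genes tested (dashed line at −0.17). The inner root sheath list lies highest with a median of 8.14 and the odontoblast and osteoblast list lowest with a median of −5.13.

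Genes of dental epithelial identity fell. Of 14 early tooth genes 11 fell and 2 rose, with a median of −1.91. *Satb1*, a chromatin organizer, went from 37.9 and 38.0 RPKM to 1.62 and 1.67 RPKM (−3.88, SE 0.09), and *Isl1*, a LIM homeobox gene of incisor epithelium, from 19.6 and 17.5 RPKM to 0.734 and 0.479 RPKM (−3.61, SE 0.12). *Nkx2-3*, a homeobox gene, was at 5.48 and 6.02 RPKM in cKO CLH and had no read in cKO CLT, at least 112.0-fold lower. Both Ctrl CLT libraries kept these factors, with *Isl1* at 21.9 and 21.3 RPKM. The 2 that rose were *Irx1* (1.45) and *Tbx1* (0.39), and *Dlx3*, which both teeth and hair need, was at 144 and 142 RPKM and at 134 and 140 RPKM (−0.06, SE 0.08, limma adjusted p = 0.54, and 0.14 with the median of ratios), and passed with quantile normalization (−0.25, limma adjusted p = 0.0151). *Tbx1* did not pass without the first cKO CLH library (0.23), the first cKO CLT library (0.42) or the second (0.35). Of 11 dental stem cell genes 9 fell, *Sfrp5*, a Wnt antagonist of the loop, from 11.9 and 17.1 RPKM to 1.39 and 1.31 RPKM (−2.70, SE 0.16), and *Sox2* from 1.72 and 1.5 RPKM to 0.131 and 0.209 RPKM (−1.16, SE 0.10). The 2 that rose were *Lrig1* (3.91 and 4.98 RPKM to 38.7 and 41.5 RPKM) and *Lgr5* (0.233 and 0.158 RPKM to 7.37 and 6.53 RPKM).

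Among basal epithelial genes the keratins and the adhesion genes moved apart. Of 13 tested 6 rose and 6 fell. *Krt15*, a keratin of hair bulge and basal cells, went from 11.4 and 13.2 RPKM to 322 and 353 RPKM (4.67, SE 0.10), *Krt5* rose by 1.78 (SE 0.12), *Krt14* by 1.38 (SE 0.11) and *Trp63*, the p63 gene of stratified epithelia, by 1.13 (SE 0.09). The *Krt14* level went from 220 and 242 RPKM to 558 and 649 RPKM. *Lamb3*, which encodes a laminin chain of the basement membrane, went the other way, from 64.6 and 59.3 RPKM to 9.15 and 10.3 RPKM (−2.56, SE 0.09). In Ctrl CLT it was above Ctrl CLH, at 211 and 96.1 RPKM against 49.3 and 35.1 RPKM. *Itga6*, an integrin of the hemidesmosome, fell by 0.55 (SE 0.10). Of 7 oral and tongue epithelium genes 3 fell. *Krt13* and *Krt4*, the keratin pair of oral lining, were at 42.5 and 24.4 RPKM and at 12.3 and 7.11 RPKM in cKO CLH and fell by 4.65 (SE 0.22) and 2.51 (SE 0.20). Of the 4 that rose, *Krt36* (5.27) and *Krt84* (4.73) are also on the hair shaft list and *Krt6a* (3.71) on the companion layer list, and the other was *Krt78* (2.93).

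The pathways that pattern teeth and hair held members that rose and members that fell, as did all genes tested (29.3% higher and 45.0% lower). In the hedgehog pathway 9 of 14 genes tested fell and only *Boc*, a coreceptor, rose (0.73). The ligand *Shh* went from 54.4 and 61.9 RPKM to 4.13 and 3.52 RPKM (−3.62, SE 0.11), the receptor *Ptch1* from 54.6 and 52.0 RPKM to 10.5 and 11.5 RPKM (−2.18, SE 0.09), and the effector *Gli1* from 70.5 and 78.6 RPKM to 17.9 and 19.6 RPKM (−1.94, SE 0.09). *Ptch1* and *Gli1* are also targets of the pathway. In the Wnt pathway 16 of 43 genes rose and 24 fell. The ligand *Wnt3* went from 0.019 and 0.0326 RPKM to 12.5 and 12.5 RPKM (3.72, SE 0.10), the receptor *Fzd10* rose by 2.66 (SE 0.09), and the secreted antagonists *Sfrp2* (402 and 581 RPKM to 3.33 and 2.88 RPKM, −6.89), *Dkk1* (20.0 and 21.1 RPKM to 0.144 and 0.0656 RPKM, −4.29) and *Wif1* (−3.96) fell. In the Notch pathway 8 of 22 rose and 10 fell, or 9 and 8 with median-of-ratios scaling. The receptor *Notch1* rose by 1.92 (SE 0.09) and the target *Hey1* went from 86.2 and 73.8 RPKM to 2.28 and 2.58 RPKM (−4.56, SE 0.11). Of 10 genes of the stratum intermedium, the Notch-active layer behind the ameloblasts, 6 rose and 3 fell. In the BMP pathway 4 of 27 rose, with *Fst*, encoding the antagonist follistatin, at 1.23, and 19 fell, among them the ligand *Bmp5* (−2.51) and the target *Id3* (−2.19). In the FGF pathway 4 of 22 rose and 12 fell. *Fgf5*, the ligand that ends hair growth, went from 0.0118 and 0.0271 RPKM to 15.9 and 15.8 RPKM (4.05, SE 0.10), while *Fgf3*, a ligand of dental mesenchyme, fell by 2.33 and the receptor *Fgfr1* fell by 3.07. Of 8 AP-1 transcription factor genes 6 rose and 2 fell. Of 6 ectodysplasin genes tested 3 rose and 1 fell, and *Eda* itself was at 2.63 and 2.61 RPKM and at 2.16 and 2.51 RPKM (−0.12, SE 0.10, limma adjusted p = 0.33), or 0.022 with that scaling.

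Ion transport of enamel cells fell in part. Of 18 calcium and pH genes tested 11 fell and 6 rose. *Calb1*, encoding the calcium buffer calbindin of ameloblasts, went from 156 and 149 RPKM to 0.162 and 0.0639 RPKM (−7.11, SE 0.10), and *Cftr*, an anion channel, from 2.89 and 2.09 RPKM to 0.0736 and 0.0523 RPKM (−1.71, SE 0.12). *Car6*, a secreted carbonic anhydrase, went from 0.325 and 0.321 RPKM to 224 and 229 RPKM (7.43, SE 0.09), and it was also abundant in both Ctrl CLT libraries, at 90.2 and 162 RPKM. Of 10 iron handling genes 3 rose and 6 fell, beside 29.3% and 45.0% of all genes tested. *Slc40a1*, the iron exporter ferroportin, went from 5.64 and 6.40 RPKM to 111 and 100.02 RPKM (3.93, SE 0.10), and *Slc39a14*, an importer of iron and zinc, fell by 1.56 (SE 0.09).

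Genes of basic cell functions moved less, and their direction depended on the scaling. Of 40 cell cycle genes 4 rose and 16 fell, but 8 rose and 4 fell with the median of ratios. A single one passed 2-fold, *Ccnd1* (cyclin D1), from 69.2 and 69.9 RPKM to 32.5 and 34.1 RPKM, which did not pass with all 8 libraries in 1 fit (limma adjusted p = 0.0749). *Mki67*, the proliferation marker, was at 22.7 and 23.6 RPKM and at 20.7 and 19.8 RPKM (−0.18, SE 0.09, limma adjusted p = 0.081, and 0.0069 with the median of ratios). The 4 that rose, by 0.70 or less, included *Mybl2* and *Ccnb1*. Of 76 ribosomal protein genes tested 3 rose and 22 fell, with a median of −0.19, against 9 and 8 with the median of ratios and 4 and 54 with quantile normalization. Of 75 respiratory chain genes 22 rose and 15 fell, with a median of 0.06, against 36 and 7 with the median of ratios and 13 and 26 with quantile normalization. The 3 respiratory chain genes that rose at least 2-fold were the muscle forms *Cox8b*, *Cox6a2* and *Cox7a1*. Of 33 Mediator subunit genes 9 rose and 15 fell, none by 2-fold, with a median of −0.20, against 13 and 7 with the median of ratios.

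The same contrast in Ctrl tissue was set beside these values. Ctrl CLT and Ctrl CLH share no library with the cKO contrast. None of the 13889 genes passed at an adjusted p under 0.05 with limma, 1816 had an unadjusted p under 0.05, the smallest adjusted p was 0.102, and voom on the recovered reads also called none. The count was set by the 2 Ctrl CLT libraries, since leaving out the first gave 241 higher and 198 lower and leaving out the second 2578 higher and 4941 lower. For the 186 genes that rose at least 32-fold in cKO, the first Ctrl CLT library held a median of 33.3% of the cKO CLT mean (interquartile range 30.6% to 35.7%), and the second held a median of 0.0507%. *Krt71* was at 1229 RPKM in the first and 1.30 RPKM in the second, and *Tchh* at 509 and 1.48 RPKM. The first Ctrl CLT library thus held this set of genes at nearly 1 common ratio, and the second was near the CLH libraries in its median, with single genes up to 71.6% of the cKO CLT mean against at most 3.22% in a CLH library. Muscle genes took 0.187% of its reads and 0.0133% in the second. The source of this RNA was not tested. For the 32 genes that fell at least 32-fold in cKO, the Ctrl CLT libraries held medians of 32.3% and 84.1% of the cKO CLH mean. The cKO CLT libraries held 0.326% and 0.201%, which had to be low because the genes were chosen by that fall.

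**Figure D5:**
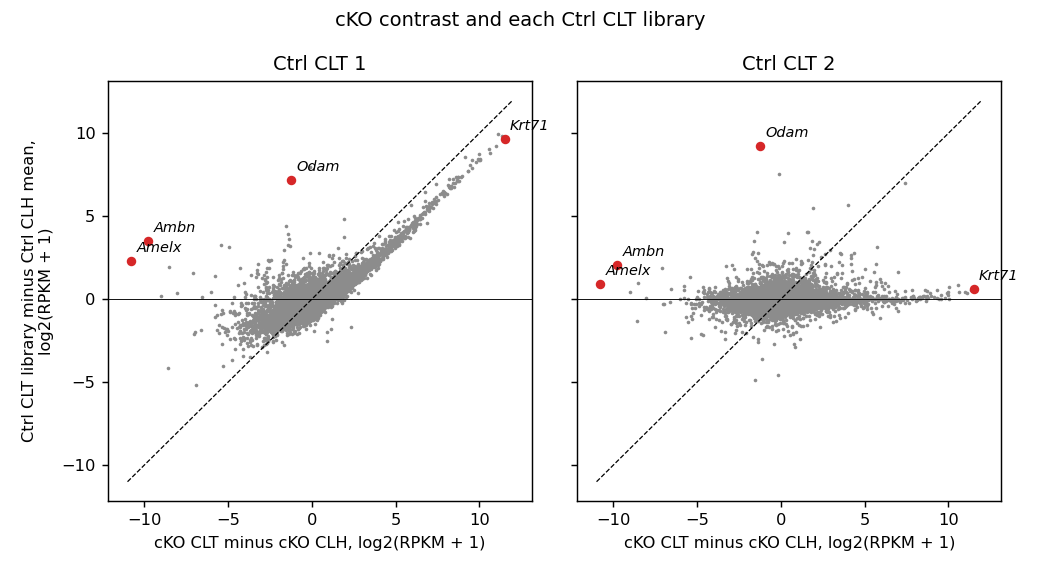
For each gene tested, the cKO CLT minus cKO CLH difference (horizontal axis, log2) against the log2 difference between 1 Ctrl CLT library and the Ctrl CLH mean (vertical axis), with Ctrl CLT 1 on the left and Ctrl CLT 2 on the right, on the log2(RPKM + 1) scale. Genes that rose most in cKO lie below the diagonal but high in the left panel and mostly near 0 in the right panel, where single genes lie higher. *Amelx* and *Ambn* (labelled) lie above 0 in both.

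The difference of the contrast between cKO and Ctrl was tested over all 8 libraries with limma. Of 14148 genes, 1139 (8.05%) had a higher cKO contrast and 1355 (9.58%) a lower one. These counts rested on the spread between the 2 Ctrl CLT libraries, being 4028 and 4904 without the first, 3757 and 2842 without the second, and 2 to 19 higher and 196 to 265 lower when 1 of the other 6 was left out. The falls carried the largest differences. *Amelx* differed by −12.36 (SE 0.64, limma adjusted p = 0.00059), *Ambn* by −12.55, *Dspp* by −9.30 and *Calb1* by −8.84 (limma adjusted p = 2.9e-05). Without the first Ctrl CLT library these differences were −11.67, −11.85, −9.42 and −8.98 and without the second −13.06, −13.26, −9.18 and −8.70. Of 14 ameloblast genes tested 12 had a lower contrast in cKO, as did 11 of 14 dentin and bone genes, 11 of 18 calcium and pH genes and 8 of 14 early tooth genes. Leaving out the first Ctrl CLT library gave 12, 13, 15 and 10, and leaving out the second 13, 11, 14 and 9. The hair genes did not pass this test with all libraries, with 0 of 13 inner root sheath genes, 1 of 19 hair shaft genes and 3 of 49 keratin-associated protein genes called, and *Krt71* at 6.36 (limma adjusted p = 0.24). Without the first Ctrl CLT library all 13, 18 and all 49 passed, and without the second all 13, 18 and all 49, with the lone library assumed to vary like the other groups. The size depended on that library, the median of the inner root sheath list being 8.06 without the first and 1.5 without the second. Of 40 cell cycle genes 18 had a higher contrast in cKO and none a lower one, against 31 and 1 without the first Ctrl CLT library and 39 and 0 without the second. In Ctrl, for example, *Ccnb1* was in CLT at 11.6 and 17.5 RPKM against 25 and 25.2 RPKM in CLH. Among the 8 genes with the largest higher contrast of those past the threshold, which leaves out most hair genes, were *Cd36*, a fatty acid transporter (0.981 and 1.03 RPKM to 31.6 and 27.4 RPKM), *Krtap20-2*, *Slc27a6*, a fatty acid transport protein, and *Far2*, an enzyme of wax synthesis.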

How the data were processed

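RNA-seq was done on CLH and CLT tissue of cKO and Ctrl mice, 2 libraries in each of the 4 groups, with groups and replicate numbers taken from the labels. The authors deposited RPKM per gene and library. Per the submitters' processing notes the tools were FastQC 0.72, Trim Galore 0.4.3.1, STAR 2.6.0b-1, featureCounts 1.6.3 and DESeq2 2.11.40.2 on mm10. The annotation, the strand setting and the read total behind the RPKM are not given in the sources used here, so reads of overlapping, antisense or near-identical genes may be shared. The RPKM steps gave whole reads within 0.02 reads, and library totals on genes were taken from these. The table held 0 per-sample columns that were not used and no columns of the authors' own comparisons. A total of 26 names stood on more than 1 row (69 rows) and were left out of gene lists.

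Genes with RPKM of at least 1 in 2 or more of the 4 cKO libraries were tested on log2(RPKM + 1) with limma 3.58.1 (variance trend, R 4.3.3), Benjamini-Hochberg adjustment and a threshold of 0.05. The added 1 shrinks the fold change of a gene with a low level. The Ctrl contrast was fitted on the 4 Ctrl libraries and the difference of contrasts on all 8. With 2 libraries on each side, exact permutation has 0.333 as its smallest p and was not used. For a group without reads a floor of 3 reads in each library gave a bound on the fold. The floor covers counting error only. Promoters are from RefSeq on GRCm38.p6. The scripts were tested on simulated data.

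The members and gene lists were chosen with earlier results of these data known. Named genes were *Med1* and the markers *Tchh*, *Krt71* and *Dspp*, the first 3 members of each list and its 3 largest rises and falls, members that moved against their list, the 12 largest rises and falls over all genes, and, among genes past the threshold, the 8 largest differences from the Ctrl contrast in each direction. *Xist* and *Ddx3y* were added after their values were seen. A few genes that this rule names are not reported here. The alternatives were other scalings, filters, pseudocounts, variance settings, a replicate block, voom on the recovered reads, a limit of 1 on the log2 difference, all 8 libraries in 1 fit and each library left out.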

Additional observations from a re-analysis of the deposited data

Results flagged for a closer look

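The genes below stood out because their CLT against CLH difference was not the same in cKO and in Ctrl tissue by the limma test of that difference over all 8 libraries (adjusted p under 0.05). The value after each gene is the cKO difference minus the Ctrl difference on the log2(RPKM + 1) scale. Of the 48 named genes that passed, 18 lost the call under at least 1 other setting that kept all libraries. These settings included the replicate block, where 12 lost it, and voom, where 10 did. Leaving out 1 library leaves a single library in its group. No call changed sign in such a fit, but many were lost without a library other than Ctrl CLT. Without a Ctrl CLT library the widest spread between replicates is gone, so a call kept there says little.

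Ameloblast genes had lower contrasts in cKO: *Amelx* (−12.36), *Ambn* (−12.55), *Enam* (−10.00), *Mmp20* (−6.89), *Klk4* (−7.15), *Amtn* (−7.91), *Odam* (−9.44), *Slc24a4* (−3.23) and *Stim1* (−0.73). The last 2 differed from the rest in that their RNA rose in cKO CLT. Ion and iron genes that differed were *Calb1* (−8.84), *Cftr* (−4.0) and *Slc39a14* (−1.54), which were lower, and *Slc40a1* (2.44), which was higher.

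Dentin, bone and cartilage genes were lower: *Dspp* (−9.30), *Bglap* (−8.26), *Spp1* (−5.84), *Alpl* (−6.90), *Ibsp* (−5.61), *Mmp13* (−5.87), *Col9a2* (−5.88) and *Col1a1* (−1.99). Tooth and jaw regulators were also lower: *Satb1* (−3.46), *Isl1* (−3.83), *Nkx2-3* (−2.78), *Alx1* (−3.44), *Lhx8* (−3.25) and *Hey1* (−4.34). Signalling genes with a lower contrast were *Wif1* (−3.67), *Gli1* (−0.99), *Id3* (−1.50) and *Fgfr1* (−2.74), and adhesion and keratin genes with a lower one were *Lamb3* (−4.31), *Itga6* (−1.06), *Krt8* (−1.68) and *Gjc1* (−2.21).

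Higher contrasts in cKO were found for the signalling genes *Lef1* (1.94), *Fzd10* (2.01), *Notch1* (1.66) and *Boc* (0.91), for the cell cycle genes *Mybl2* (1.36) and *Ccnb1* (1.16), for markers of other cell types *Col3a1* (0.85), *Thy1* (1.30) and *Cd3e* (0.76), and for *Cd36* (2.79), *Krtap20-2* (2.65), *Slc27a6* (2.54) and *Far2* (2.53). What sets these differences was not tested.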

How the results depend on the processing

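With the cKO contrast, every one of the 10323 calls that was also tested under an alternative kept its sign, whether called there or not, except 8 under quantile normalization. From 7617 (all 8 libraries in 1 fit) to 10322 were called again with the same sign. An additional limit of 1 on the log2 difference left 1841 higher and 2221 lower, and leaving out 1 library gave 3370 to 3780 higher and 4980 to 5654 lower. The Ctrl contrast had 314 higher and 458 lower with all 8 libraries in 1 fit, 1 higher without the filter and 2 higher with a replicate block, and 0 to 2578 higher and 0 to 4941 lower when 1 library was left out. The difference of contrasts had 627 higher under the limit of 1, and 2 to 4028 higher and 196 to 4904 lower when 1 library was left out. The cause of these shifts was not tested.

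Deviations from the group means of libraries with the same replicate number correlated at 0.31 between the cKO tissues and 0.20 between the Ctrl tissues, over 2 pairs each, and the labels do not say what a number shares. With the replicate number as a block, 4471 genes were higher and 6812 lower in cKO CLT, and the difference of contrasts had 513 higher and 935 lower, with 1437 of its 2494 calls kept. With the block, 12 of the 48 named genes of that test lost the call (*Lef1*, *Fzd10*, *Notch1*, *Boc*, *Mybl2*, *Ccnb1*, *Col3a1*, *Cd3e*, *Cd36*, *Slc27a6*, *Lhx8* and *Itga6*, with limma adjusted p from 0.0511 to 0.0659), while *Sparc* (0.0234) and *Mki67* (0.0236) passed in the cKO contrast.

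Direction turned under median-of-ratios scaling for *Amtn* (0.045), *Dlx3* (0.14), *Eda* (0.022) and *Mki67* (0.0069), and for *Amtn* without the second cKO CLH library (0.43) or the first cKO CLT library (0.02), while without the first cKO CLH library *Amtn* was at −0.70. None of these genes passed the test as reported. Of the 130 named genes tested, 11 lost their call with all 8 libraries in 1 fit (*Med1*, *Xist*, *Ddx3y*, *Krt6b*, *Selenbp1*, *Kit*, *S100a8*, *Odam*, *Tbx1*, *Ccnd1* and *Ccnb1*), and 6 when a library was left out. Depth limits the genes without reads in a group, for which a fold is a lower bound. With 2 pools a group, the spread is estimated mostly across genes.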
